A study of Homo sapiens with 6 samples.

Results

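The clusters examined here are those of the FLAG-Angel1 IPs that face a cluster on the opposite strand, so that RNA from both strands of the same stretch of the genome was recovered in 1 library. A cluster is a stretch of the genome where reads of 1 strand pile up, and it was taken as facing when at least 1 nt of it was shared with a cluster of the other strand in the same list. On the autosomes, 532 of 99834 clusters of FLAG-Angel1 replicate 1 and 184 of 93838 clusters of FLAG-Angel1 replicate 2 met this condition. In the control IP, 7 of 5332 clusters did. The members were chosen by the measured positions and strands of the clusters in each list, so that their number and overlap are a description, and their log2 folds and P values were not part of the choice.

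The lists come from eCLIP, in which UV light cross-links RNA to protein, fragments bound to the protein are recovered with an antibody (the IP), and a matching input of the same fragment sizes is sequenced without that recovery. The 6 libraries are an IP and an input for each of 2 FLAG-Angel1 replicates and for 1 control, all from HEK293, a human embryonic kidney line. FLAG-Angel1 was expressed from a tetracycline-regulated insertion in Flp-In T-REx cells at a level chosen to be near that of the endogenous protein, and every culture received 5 ng/mL tetracycline for 24 h and, according to the labels, 400 mJ/cm2 of light at 254 nm before recovery with the M2 FLAG antibody. The control is described in the paper as cells without a FLAG fusion protein, although its labels also list FLAG-Angel1 as the genotype; the paper further mentions a sample without UV exposure, which no label marks. Nothing in the labels states whether the replicates were separate cultures.

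Angel1 belongs to the family of nucleases and phosphatases that also includes the deadenylase CCR4, and the study asked which RNAs it contacts. The adapters in eCLIP are joined to the RNA in a known orientation, so the strand of a cluster is the strand of the RNA that was recovered. RNA from both strands of 1 site can arise where convergent genes overlap at their 3′ ends, where transcription leaves a promoter in both directions, or where an antisense RNA is made across a gene. Transcripts of the last kinds are often short-lived and nuclear, while overlapping 3′ ends belong to stable mRNAs.

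The facing clusters made up 0.533% of the autosomal clusters in replicate 1 (Wilson 95% interval, 0.490% to 0.580%) and 0.196% in replicate 2 (0.170% to 0.226%). The share was 0.131% in the control (0.0636% to 0.271%), whose interval overlaps that of replicate 2 and lies below that of replicate 1. These intervals treat each cluster as an independent draw, although facing clusters come at least 2 to a locus, so they understate the counting error. Their order therefore does not settle a difference between libraries. Clusters within a library are not replicates, and no P was calculated between libraries. The control list is far shorter, so a cluster there has fewer others to overlap (a median of 1 within 10 kb, against 5 in each replicate). Its 7 facing clusters lay at 2 loci, with 5 of them at 1 locus. In replicate 1 the facing clusters formed 288 pairs of a plus-strand and a minus-strand cluster at 244 loci, and in replicate 2 they formed 96 pairs at 88 loci. A locus joins facing clusters that share at least 1 nt, so stretches that only abut count as separate loci. Both strands contributed about equally, with 272 plus-strand and 260 minus-strand clusters in replicate 1 and 94 and 90 in replicate 2. Most loci were a single pair, namely 213 of 244 in replicate 1 and 83 of 88 in replicate 2.

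Within a pair, the shared stretch was short and usually covered most of the shorter cluster. Its median was 46 nt in replicate 1 (quartiles, 23 to 69 nt) and 30 nt in replicate 2 (14 to 46.25 nt), or 87.9% and 89.8% of the shorter cluster. The longest, 192 nt, was in replicate 1 on chromosome 16, where a minus-strand cluster from 22448396 to 22448587 lay inside a plus-strand cluster from 22448396 to 22448626 (positions on GRCh37, counted from 1). One cluster lay inside the other in 110 of 288 pairs of replicate 1 (38.2%) and in 38 of 96 pairs of replicate 2 (39.6%). The remaining pairs were staggered in both directions. In replicate 1 the 3′ ends of the clusters overlapped in 98 pairs (34.0%) and the 5′ ends in 80 (27.8%), whereas in replicate 2 the counts were 27 (28.1%) and 31 (32.3%).

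Pairs at the limit of the condition ranged from low to high values. In replicate 1, 6 pairs shared exactly 1 nt and 4 abutted without sharing any. On chromosome 5, for example, a plus-strand cluster from 43603258 to 43603323 with a log2 fold of −0.82 shared 1 nt with a minus-strand cluster from 43603147 to 43603258 with a log2 fold of 1.09. On the same chromosome, a plus-strand cluster from 179233685 to 179233745 (−0.23) only abutted a minus-strand cluster from 179233559 to 179233684 (1.51). An abutting pair on chromosome 10 had a plus-strand cluster from 17271361 to 17271369 at 2.57, with a −log10 P of 52.0, and a minus-strand cluster at 0.35. Replicate 2 had 2 pairs sharing exactly 1 nt and 3 that abutted. The pairs sharing 1 nt were on chromosome 19, with a plus-strand cluster from 33792687 to 33792698 at 5.07, the highest log2 fold of a facing cluster in replicate 2, and a minus-strand cluster from 33792698 to 33792706 at 3.31, and on chromosome 6, with a plus-strand cluster from 31868293 to 31868347 (1.73) and a minus-strand cluster from 31868347 to 31868422 (1.02). On chromosome 7, the abutting clusters were a plus-strand cluster from 27192074 to 27192134 (2.47) and a minus-strand cluster from 27192135 to 27192189 (2.73). A further 155 opposite-strand pairs in replicate 1 and 69 in replicate 2 lay 1 to 50 nt apart.

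In replicate 1, facing was more frequent among wide clusters. Of the clusters up to 50 nt wide, 0.258% faced another (106 of 41019), against 0.621% of those from 51 to 100 nt (246 of 39613) and 0.937% of those over 100 nt (180 of 19202). In replicate 2 the 3 shares were 0.171% (80 of 46829), 0.215% (78 of 36298) and 0.243% (26 of 10711), and their intervals overlapped. The median width of a facing cluster was 84 nt in replicate 1 against 60 nt for all autosomal clusters, and 56 nt against 51 nt in replicate 2. A wide cluster has more positions at which an overlap can fall, and the part played by width was not tested. The share was higher in replicate 1 than in replicate 2 in each width class.

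**Figure D1:**
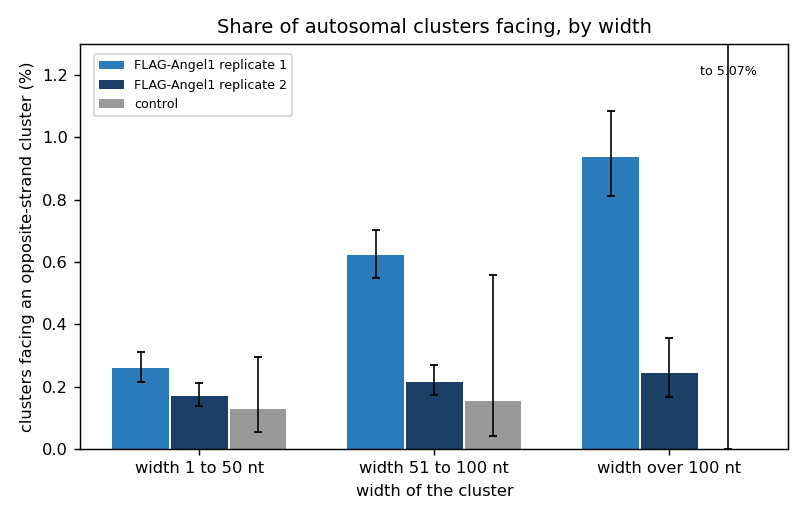
Share of autosomal clusters facing a cluster of the opposite strand (%, vertical axis) in 3 classes of cluster width, for both FLAG-Angel1 replicates and the control. Bars are shares and error bars Wilson 95% intervals; replicate 1 rises from 0.258% to 0.937% across the classes and lies above replicate 2 in each, and the control has 0 facing among its 72 clusters over 100 nt.

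The deposited log2 fold compares the reads of the IP with those of its own input, and the 3 libraries are not on 1 scale, so that levels are set against the other clusters of the same library. The median of facing clusters was close to that of all clusters, while in replicate 2 their quartiles lay lower. In replicate 1 their log2 fold ranged from −4.56 to 4.74 with a median of 0.48 (quartiles, −0.23 to 1.31), and the median of all autosomal clusters was 0.57 (−0.23 to 1.27). For replicate 2 the range was −1.12 to 5.07 and the median 1.72 (0.93 to 2.14), beside 1.73 for all (1.22 to 2.47). The share with a log2 fold of 0 or below was 30.1% of facing and 31.3% of all clusters in replicate 1, and 6.52% (12 of 184, 3.77% to 11.1%) and 2.51% in replicate 2. The lists hold no read counts, and many clusters share exactly the same value. A log2 fold of 1.73 was carried by 24 of the 184 facing clusters of replicate 2 (13.0%) and by 13.1% of all its autosomal clusters.

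Enrichment over input, meaning a P of the authors under 0.05 with a log2 fold above 0, was found for 83 of 532 facing clusters in replicate 1, or 15.6% (12.8% to 18.9%), where 11.5% of all autosomal clusters were enriched. In replicate 2 it was found for 47 of 184, or 25.5% (19.8% to 32.3%), where 40.5% of all were enriched. The facing clusters thus stood above the background share in 1 replicate and below it in the other. Taking P under 0.001, the shares were 7.52% against a background of 4.1% in replicate 1 and 15.2% against 16.6% in replicate 2. The interval of the latter (10.7% to 21.1%) includes the background. Without the clusters that overlapped a control cluster, the share in replicate 1 was 11.9%, against 10.6% of all clusters. The excess in replicate 1 was not present in every width class. Up to 50 nt, 15.1% of facing clusters (16 of 106) and 8.86% of all were enriched. The shares were 7.72% against 8.90% from 51 to 100 nt, and 26.7% against 22.5% over 100 nt. The 16 narrow clusters include 6, each at most 10 nt wide, of the chromosome 19 locus described below, which also faced in the control. Close by, from 33792470 to 33792570, 4 more facing clusters lay within 101 nt, all enriched, and the control had both strands there. The narrow share without this region was not calculated. In replicate 2 the share was lower in each class, with 15.0% against 30.1%, 25.6% against 44.0% and 57.7% against 74.0%. The last rests on 15 of 26 clusters, and its interval (38.9% to 74.5%) includes the share of all clusters. In the control all 7 facing clusters were enriched, where 92.9% of all control clusters were.

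The strands of a pair carried largely unrelated log2 folds. In replicate 1 both strands were enriched in 19 of 288 pairs (6.60%), 1 strand in 61 (21.2%) and neither in 208 (72.2%). The counts in replicate 2 were 9 of 96 (9.38%), 35 (36.5%) and 52 (54.2%). Neither strand was favoured, since the plus-strand cluster had the higher log2 fold in 143 pairs of replicate 1 (49.7%, with 8 pairs equal) and in 48 pairs of replicate 2 (50.0%, with 3 equal). The strands lay on opposite sides of 0 in 124 pairs of replicate 1 (43.1%) and in 8 of replicate 2 (8.33%). As a description across pairs, which are not independent and share a library, Pearson's r between the log2 folds of the strands was 0.160 in replicate 1 and 0.302 in replicate 2, and Spearman's rho was 0.0735 and 0.145. These values rested on a single region of chromosome 19. Without it r was −0.00467 over 280 pairs and 0.0663 over 92 pairs.

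The difference between the strands had a larger median than that between close clusters of 1 strand, with overlapping quartiles. Its median size was 0.93 on the log2 scale in replicate 1 (quartiles, 0.48 to 1.74) and 0.85 in replicate 2 (0.43 to 1.39). For same-strand neighbours 1 to 50 nt apart it was 0.68 over 5328 pairs (0.32 to 1.19) and 0.58 over 5214 pairs (0.26 to 1.07). Abutting same-strand clusters were left out of these, and width and level were not matched. A difference above 1 was found in 129 facing pairs of replicate 1 (44.8%) and 39 of replicate 2 (40.6%). The widest in replicate 1 was 6.09, on chromosome 17, between a plus-strand cluster from 7788369 to 7788400 with a log2 fold of 1.54 and a minus-strand cluster from 7788338 to 7788400 with a log2 fold of −4.56. The widest in replicate 2 was 3.85, on chromosome 21, between a minus-strand cluster at 3.26 and a plus-strand cluster at −0.59.

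**Figure D2:**
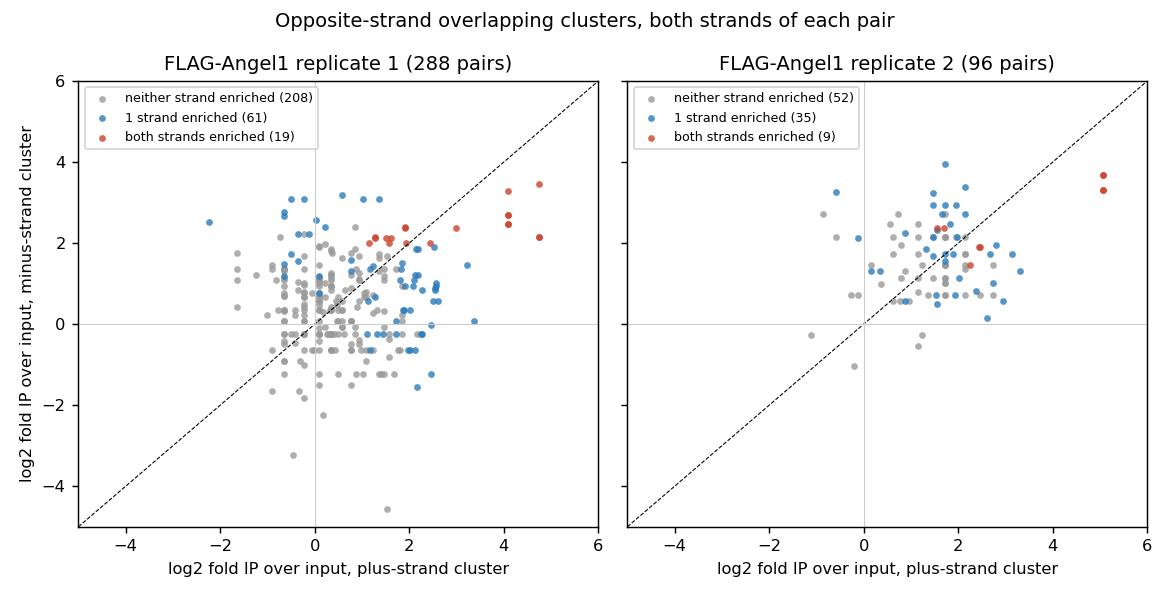
Log2 fold of IP over input of the plus-strand cluster (horizontal axis) against that of the minus-strand cluster (vertical axis), 1 point for each facing pair, with 288 pairs of replicate 1 and 96 of replicate 2; the dashed line marks equal values and colour the number of strands enriched. The pairs enriched on both strands (19 and 9) include those at the far right, which lie on chromosome 19, and the other points show no diagonal.

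Pairs with both strands enriched came from few places. In replicate 1 they lay at 6 loci, with 2 loci within 237 nt of chromosome 19 and 1 each on chromosomes 7, 12, 15 and 16. In replicate 2 they lay at 4 loci, on chromosomes 5, 7, 12 and 19. Within each replicate, a control cluster overlapped 4 of these 6 loci and 2 of these 4. After merging by position over both replicates, which lengthens some loci, it overlapped 5 of 6 in replicate 1 and 2 of 4 in replicate 2. Of all merged loci, a control cluster overlapped 5.37% of those facing in replicate 1 (13 of 242) and 6.90% of those facing in replicate 2 (6 of 87). The locus on chromosome 15, from 72766879 to 72767321, was overlapped by a control cluster. It had 4 plus-strand clusters between 1.15 and 2.45 across 1 minus-strand cluster at 2.01 in replicate 1, while replicate 2 had no minus-strand cluster there. The contribution of the control's clusters to these pairs was not tested.

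When the facing loci of both replicates were merged by position, 301 were obtained. Of these, 242 faced in replicate 1, 87 in replicate 2 and 28 in both, which is 9.30% of all, 11.6% of those of replicate 1 and 32.2% of those of replicate 2. Loci facing in 1 replicate alone were usually found again on 1 strand or on none. Of the 214 loci facing only in replicate 1, replicate 2 had a cluster on the plus strand alone at 71, on the minus strand alone at 62, on neither strand at 74, and on both strands without overlap at 7. Of the 59 facing only in replicate 2, replicate 1 had the plus strand alone at 19, the minus strand alone at 23, neither at 16 and both at 1. Where a single strand was found again in replicate 2, it was the one with the higher log2 fold in replicate 1 at 100 of 133 loci (75.2%, 67.2% to 81.8%). In the opposite direction this held at 20 of 42 loci (47.6%, 33.4% to 62.3%).

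**Figure D3:**
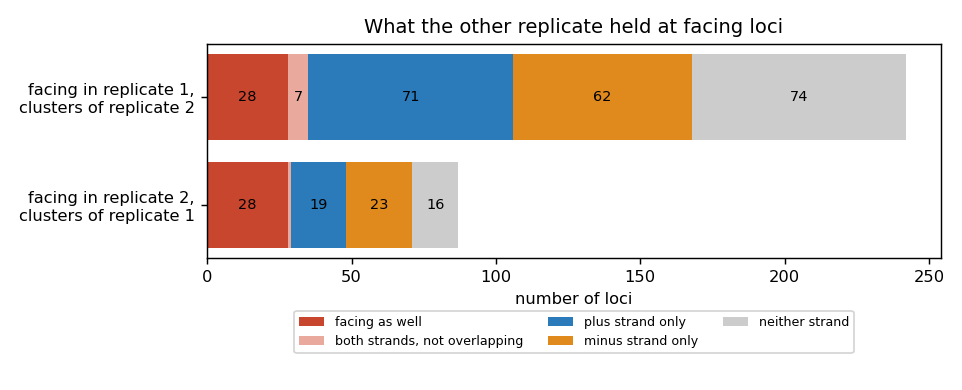
Number of facing loci (horizontal axis) of each FLAG-Angel1 replicate, divided by what the other replicate held at the same position. Of 242 loci of replicate 1, 28 faced in replicate 2 as well and 74 had no cluster there, and of 87 loci of replicate 2, 28 faced in replicate 1 and 16 had none.

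Counted by cluster, 223 of 532 facing clusters of replicate 1 overlapped a cluster of replicate 2 on their own strand, or 41.9% (37.8% to 46.2%), where 52.5% of all autosomal clusters did. The deficit was present in each width class, from 28.3% against 43.0% up to 50 nt to 59.4% against 75.0% over 100 nt. In replicate 2, 104 of 184 facing clusters overlapped a cluster of replicate 1, or 56.5% (49.3% to 63.5%), where 54.5% of all did. The opposite strand was likewise found again. A cluster of replicate 2 lay opposite 37.0% of the facing clusters of replicate 1 (197 of 532), and for replicate 2 the share was 55.4% (102 of 184). Over all autosomal clusters the shares were 0.302% (301 clusters) and 0.324% (304 clusters), and these counts include the facing clusters. Facing clusters were chosen for having an opposite-strand cluster in their own list, which most others lack, so the 2 kinds of share are not alike. They describe how often the partner strand came back in the other list, and the replicates share cell line, antibody and pipeline.

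The 28 loci facing in both replicates were examined on each strand, taking the facing cluster with the highest log2 fold. In replicate 1 the plus strand had a median of 1.03 (range, −0.47 to 4.09) and the minus strand 1.09 (−3.23 to 3.29). The same strand was stronger in both replicates at 17 of 28 loci (60.7%, 42.4% to 76.4%), 7 of them on plus and 10 on minus, an interval that includes equal shares. The strand difference itself changed by a median of 1.32 between the replicates, and its correlation between them was 0.243, given as a description over 28 loci. Both strands were enriched in both replicates at 3 loci, on chromosomes 7, 12 and 19. A single strand, the same in both replicates, was enriched at 5, and at 2 more a strand was enriched in both replicates and the other strand in 1 of them. No strand was enriched in either replicate at 11.

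**Figure D4:**
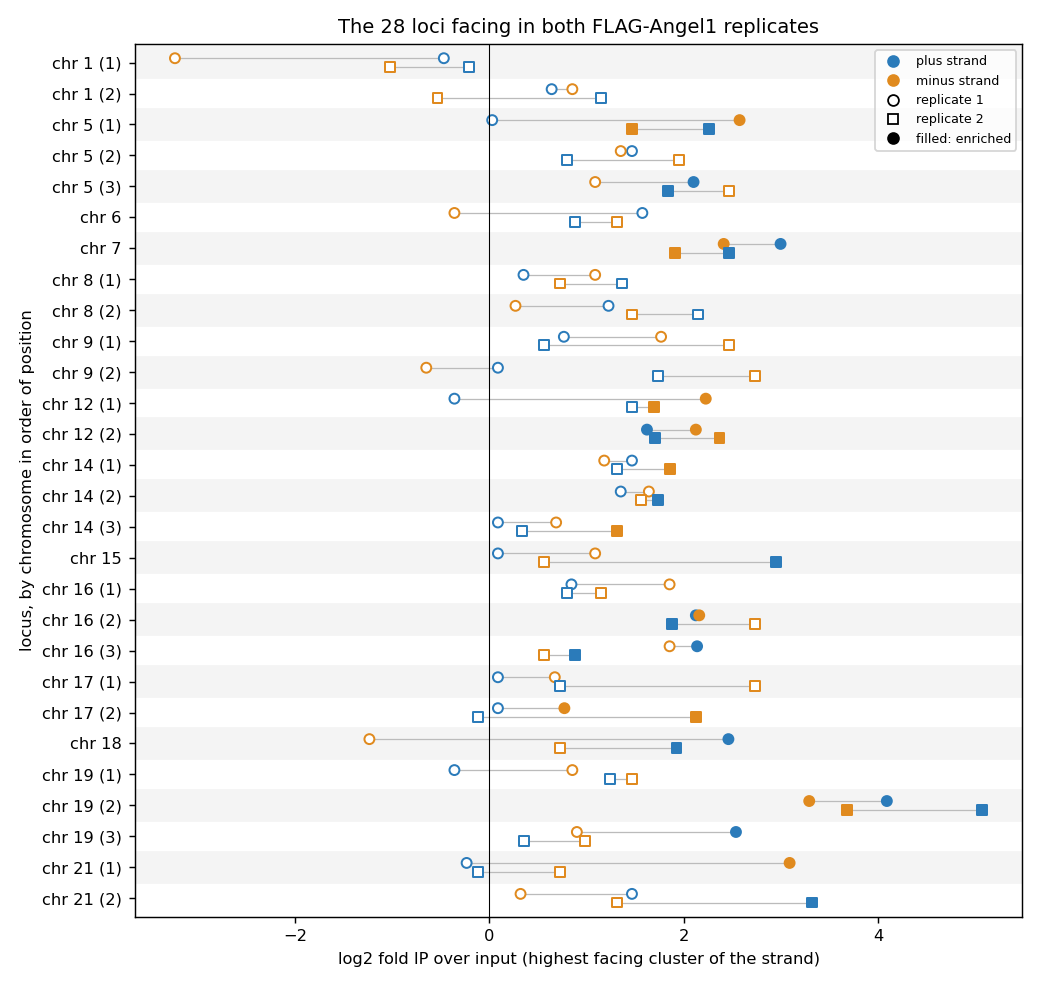
Log2 fold of IP over input (horizontal axis) of the plus and minus strands at the 28 loci facing in both FLAG-Angel1 replicates (vertical axis, ordered by chromosome and position). Circles are replicate 1, squares replicate 2 and filled symbols enriched clusters; the strongest locus, on chromosome 19, reaches 4.09 and 5.07 on the plus strand, and the order of the strands is the same in both replicates at 17 loci.

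The locus with the highest values was on chromosome 19, from 33792682 to 33792706, and it was the only facing locus shared by all 3 lists. The facing clusters there were between 3 and 17 nt wide and interleaved on both strands, with 6 in replicate 1 and 5 each in replicate 2 and the control. In replicate 1 the plus-strand clusters all stood at 4.09 and the minus-strand clusters at 3.29, 2.69 and 2.47. In replicate 2 the plus strand stood at 5.07 and the minus strand at 3.68 and 3.31. In the control the plus strand stood at 9.46 and the minus strand at 10.06, with the deposited −log10 P at its ceiling of 400 on both strands. Log2 folds of the control and of FLAG-Angel1 are relative to different inputs, so that the order of these levels between libraries cannot be read. At lower coordinates, from 33792470 to 33792570, a further locus faced in replicate 1 only (4.74 on plus and 3.47 on minus). Replicate 2 had both strands there without overlap (3.62 and 3.43), and the control had both as well (11.25 and 8.45). Leaving out this region changed the share of facing clusters enriched to 13.98% in replicate 1 (73 of 522) and to 23.5% in replicate 2 (42 of 179).

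On chromosome 7, a locus from 99036422 to 99036806 was enriched on both strands in both replicates. In replicate 1, minus-strand clusters at 2.41 and 2.38 alternated with plus-strand clusters at 1.91 and 2.99. In replicate 2, a single minus-strand cluster of 261 nt at 1.91 faced plus-strand clusters at 2.47 and 2.44. The plus strand was the stronger in both. The control had 3 clusters there, all on the plus strand, at 4.54, 4.22 and 2.22, and none on the minus strand. Within 10 kb, the clusters to the left of this locus were all on the minus strand (6 in replicate 1 and 2 in replicate 2) and those to the right all on the plus strand (3 in each).

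The locus on chromosome 12, from 98909645 to 98909926, was the third enriched on both strands in both replicates. No control cluster overlapped it, but the abutting locus from 98909512 to 98909644, which faced in replicate 1, had a control cluster on the plus strand (2.37). The highest minus-strand cluster stood at 2.12 in replicate 1 and 2.37 in replicate 2, above the highest plus-strand clusters facing it at 1.62 and 1.71. The −log10 P was the larger on the plus strand in both replicates, 4.86 against 1.60 and 6.19 against 2.24. Chromosome 16 held a comparable locus from 22448389 to 22448810, with 5 facing clusters in each replicate. Its minus strand reached 2.16 and 2.73 and its plus strand 2.12 and 1.88, the minus strand was not past the threshold in replicate 2 (−log10 P of 1.23), and the control had a cluster on the plus strand (4.54).

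Next to these, loci on chromosome 14 had both strands above 1 in both replicates with few calls. From 104164575 to 104164702, the plus and minus strands stood at 1.35 and 1.64 in replicate 1 and at 1.73 and 1.56 in replicate 2, and the plus strand in replicate 2 alone was enriched. From 24035029 to 24035185 they stood at 1.47 and 1.18, and at 1.31 and 1.86, with the minus strand in replicate 2 alone enriched.

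The next loci were picked by the P of their stronger strand over input, which does not test the difference between the strands. A stronger strand that was the same in both replicates and past P of 0.001 in both was found on chromosome 18, from 657644 to 657919, where the plus strand stood at 2.46 and 1.92 and the minus strand at −1.23 and 0.73. The minus-strand clusters, 72 and 50 nt wide, lay inside the plus-strand clusters of 130 and 267 nt. On chromosome 16, from 29821323 to 29821518, the plus strand stood at 2.14 and 0.88 (−log10 P of 24.8 and 5.10) and the minus strand at 1.85 and 0.56, neither of which was enriched. A control cluster there was at 0.07 on the plus strand. The chromosome 7 and chromosome 19 loci met the same rule. In replicates 1 and 2 the strands differed by 3.69 and 1.19 on chromosome 18 and by 0.80 and 1.39 on chromosome 19. The differences were 0.58 and 0.56 on chromosome 7 and 0.28 and 0.32 on chromosome 16. These last were below the medians of same-strand neighbours (0.68 and 0.58). The only locus whose enriched stronger strand switched was on chromosome 5, from 79950635 to 79950786. Its minus strand led in replicate 1 (2.57 against 0.03) and its plus strand in replicate 2 (2.26 against 1.47), and both strands were enriched in replicate 2.

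A control cluster overlapped 13 of the 301 loci (4.32%, 2.54% to 7.25%), on the plus strand alone at 9, on the minus strand alone at 2 and on both at 2, both of them the chromosome 19 loci above. Counted by cluster and on either strand, 6.02% of the facing clusters of replicate 1 (4.29% to 8.37%) and 6.52% of those of replicate 2 (3.77% to 11.1%) overlapped a control cluster, where 2.42% and 2.48% of all autosomal clusters did. On the same strand, 20 of 532 facing clusters of replicate 1 overlapped one (3.76%, where 2.41% of all autosomal clusters did) and 10 of 184 of replicate 2 (5.43%, where 2.47% did). Of the 28 loci facing in both replicates, 6 overlapped one (21.4%, 10.2% to 39.5%). A like share for all sites found in both replicates was not calculated, and the shares of all clusters above are for single clusters. The 6 loci include 1 on chromosome 19 from 1395383 to 1395557, with a control cluster at 5.83 on the plus strand. Another, on chromosome 17 from 74732728 to 74733121, had a control cluster at 2.22 on the minus strand. That strand was enriched there in both replicates (0.77 and 2.12). The control's second facing locus, on chromosome 3, paired a plus-strand cluster from 14989276 to 14989337 (2.95) with a minus-strand cluster from 14989224 to 14989308 (4.95), and no FLAG-Angel1 pair overlapped it. Replicate 2 had a facing pair close by, from 14989095 to 14989160 (0.95 on plus and 0.56 on minus). The control list is far shorter than those of FLAG-Angel1, which limits how many overlaps it could give.

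Without gene annotation of the same build, the strands of the surrounding clusters were used to describe the setting of each locus. For every locus, the strand of most clusters within 10 kb on the left and on the right was recorded. Minus to the left and plus to the right was called divergent, the arrangement of genes that share a promoter region, and plus to the left with minus to the right was called convergent, the arrangement of genes that meet at their 3′ ends. Of the 244 loci of replicate 1, 60 were divergent (24.6%) and 32 convergent (13.1%), against 3.54% and 4.30% of all autosomal clusters classed in the same way. In replicate 2, 23 of 88 were divergent (26.1%) and 15 convergent (17.0%), against 3.13% and 3.72%. The choice of loci favours sites where both strands are transcribed, so that these shares are a description without a test. Facing loci also lay among more clusters, with medians of 9 and 7 neighbours within 10 kb against 5 for all clusters in each replicate.

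**Figure D5:**
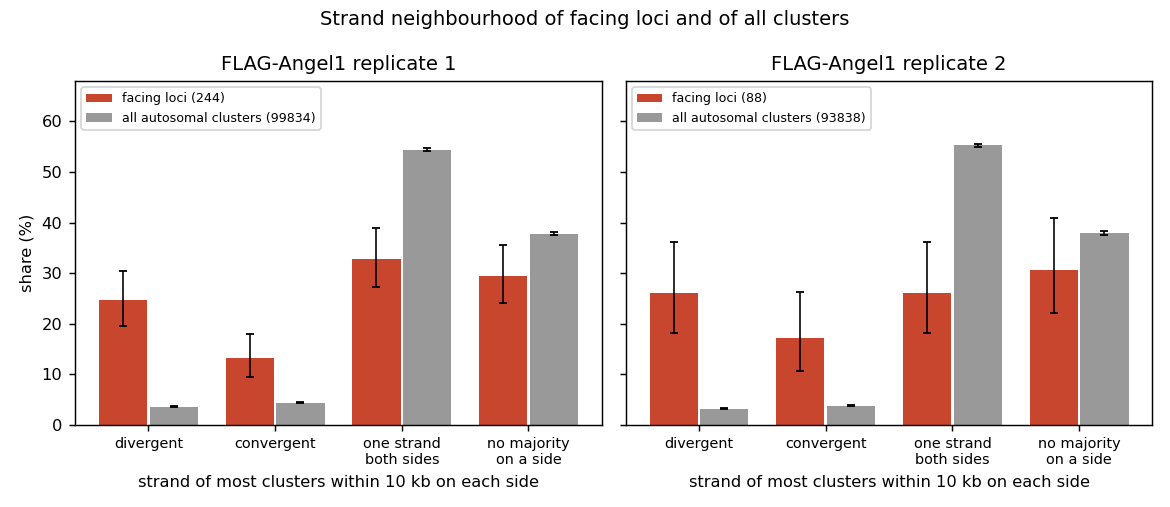
Share (%, vertical axis) of facing loci and of all autosomal clusters in each of 4 strand neighbourhoods within 10 kb (horizontal axis), for each FLAG-Angel1 replicate; error bars are Wilson 95% intervals. Divergent neighbourhoods hold 24.6% and 26.1% of facing loci and 3.54% and 3.13% of all clusters.

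Among the loci in these 2 classes, divergent ones were the more frequent, with 65.2% in replicate 1 (60 of 92, 55.1% to 74.2%) and 60.5% in replicate 2 (23 of 38, 44.7% to 74.4%), whereas over all clusters the divergent share was 45.1% and 45.7%. The interval of replicate 2 includes the value for all clusters. With neighbours taken within 5 kb the shares were 68.4% and 73.1% (51.5% and 52.7% over all clusters), and within 50 kb they were 51.4% and 54.2% (40.7% and 41.5%). The stagger of the clusters did not follow the neighbourhood closely. In divergent neighbourhoods of replicate 1, 25 pairs overlapped at their 5′ ends, 23 at their 3′ ends and 24 were nested, and in convergent ones the counts were 9, 11 and 16. Of the 28 loci facing in both replicates, 21 had the same class in both, among them 7 divergent and 4 convergent.

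The remaining loci did not lie between sides with opposite majority strands. The same majority strand on both sides was found for 80 loci of replicate 1 (32.8%) and 23 of replicate 2 (26.1%), and a side without a majority or without clusters for 72 (29.5%) and 27 (30.7%). In the former, 1 cluster of the pair is on the strand of most neighbours, called here the strand of the neighbours, and the other is on the opposite strand. Neighbours of both strands can lie there. In replicate 1, the chromosome 16 locus from 1827946 to 1828174 had 19 plus-strand and 13 minus-strand clusters to its left. In replicate 1, over 101 such pairs, the median log2 fold was 1.01 on the strand of the neighbours and 0.09 on the other. The strand of the neighbours had the higher value in 69 pairs (68.3%, 58.7% to 76.6%). It was enriched in 29 pairs (28.7%) and the other strand in 12 pairs (11.9%), where 11.5% of all clusters were enriched. Replicate 2 did not show this difference in level. Over its 26 pairs both medians were 1.73 and the strand of the neighbours was higher in 12 (46.2%, 28.8% to 64.5%). It was enriched in 12 pairs (46.2%) and the other strand in 6 pairs (23.1%), where 40.5% of all clusters were. A cluster in several pairs counts once for each, so shares of pairs and of clusters are not alike, and the intervals treat pairs as independent. In replicate 1, the pairs enriched on the strand of the neighbours include those of 1 stretch of chromosome 16. From 29817848 to 29821507, all 9 facing plus-strand clusters were enriched there. The pairs enriched on the other strand include those of the chromosome 19 loci, where the control had both strands. These were 3 and 5 pairs in replicate 1 and 4 in replicate 2. Over the same pairs, the clusters on the other strand were the narrower in replicate 1 (median, 67 against 85 nt) and the wider in replicate 2 (52 against 45.5 nt).

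Facing clusters were spread over the autosomes unevenly. In replicate 1 chromosome 19 held 74 of them, 13.9% of the total, with 8.33% of all clusters, and 0.890% of its clusters faced another. On chromosome 1, which has the most clusters (10259), 29 did (0.283%). In replicate 2 chromosome 16 held the most, 23 of 5255 clusters (0.438%), followed by chromosome 19 with 21. Of the 301 loci, 140 (46.5%) had a further facing locus within 10 kb. Abutting stretches count here as separate loci, as from 12780685 to 12780830 and from 12780831 to 12780992 on chromosome 19. A matching share over all clusters was not calculated, so this is a description only.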

How the data were processed

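The 6 eCLIP libraries of HEK293 cells were considered, with cluster lists for the 3 IPs. The submitters' processing notes name cutadapt, STAR, SAMtools and UMI-tools and the builds GRCh37 and hg19, without roles or versions, and the paper used the eCLIP pipeline of the Yeo laboratory. The authors deposited a log2 value for each cluster, its fold of IP reads over input reads, and a −log10 P, which has a ceiling of 400. Clusters were called in each library separately and hold no read counts, so the depth behind a value is not known here, and reads amplified by PCR are not independent molecules beyond what UMI removal covers.

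Facing clusters, pairs and loci were found with pandas 2.3.3 and numpy 2.4.6 in Python 3.11.15, and figures drawn with matplotlib 3.10.9. The pairing was tested on simulated lists, in which 300 of 300 planted pairs were recovered with 0 extra clusters. Shares carry Wilson 95% intervals, which treat the clusters, pairs or loci counted as independent. No test was made, because the control has 1 library, the lists hold no counts and clusters are not replicates. Shares over all autosomal clusters were calculated in the same way for comparison.

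The clusters, rules and classes were chosen with earlier results of these data known. Loci were named by rule. Of the loci facing in both replicates, these were the 6 with the largest lowest log2 fold over both strands and replicates, those with the same stronger strand past P of 0.001 in both (up to 6), the 4 with most facing clusters, those facing in the control and those whose enriched stronger strand switched. The first pairs at the limit of the overlap were named as well. Loci on chromosomes 3, 15 and 17, the pairs with the widest strand difference, the locus on chromosome 19 from 1395383, that from 33792470, the locus on chromosome 12 from 98909512 and the regions under other observations were chosen after their values were seen. No gene annotation or genome of GRCh37 was used, so that genes, sequences and the arrangement of annotated genes were not analysed here. Alternatives covered the overlap, thresholds, widths, joining of abutting clusters, the control and each replicate alone, and, chosen after seeing the data, the size of the neighbourhood and the chromosome 19 region.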

Additional observations from a re-analysis of the deposited data

Results flagged for a closer look

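Facing clusters were also found on chromosome X, which the comparisons did not use. There were 9 among 2926 clusters in replicate 1 (0.308%, 0.162% to 0.584%) and 2 among 3015 in replicate 2 (0.0663%, 0.0182% to 0.242%). In the control, 0 of 347 clusters on chromosome X faced another, which allows a share of up to 0.865% when taken as 3 counts of that number (the Wilson upper limit is 1.09%), so that a difference from the control was not detectable at this number of clusters. The shares lay below those of the autosomes in both replicates (0.533% and 0.196%), and the difference was not tested. These values were listed because the chromosome lies outside the main measurement and the control has none.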

How the results depend on the processing

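Requiring that each cluster share 50% of its length with its partner left 248 facing clusters in replicate 1 and 68 in replicate 2, and 7 loci facing in both. With enriched clusters only on both strands, 25, 13 and 3 were left, and at P under 0.001, 8 and 5 facing clusters. The share enriched was 7.52% and 15.2% at that threshold. In replicate 1 it was 12.3% with abutting clusters joined and 11.9% without clusters over a control cluster (9.22% and 10.6% of all clusters), and in replicate 2 it was 33.3% among clusters of at least 50 nt (50.4% of all). The median strand difference was 0.79 and 1.04 with the 50% overlap, and 0.84 in replicate 1 where both strands were enriched. With 1 replicate left out no locus can face in both, and the facing loci were 87 in replicate 2 alone and 242 in replicate 1 alone. A same-strand cluster in the other replicate was found for 23.1% and 31.5% of facing clusters with the 50% overlap (29.5% and 31.4% of all clusters), and for 19.4% and 19.6% when it had to be enriched (29.6% and 11.0% of all, so below in replicate 1 and above in replicate 2). Control clusters on both strands left 0.664% of loci. The divergent share in replicate 1 was 51.4% within 50 kb. The other 29 values stayed within 1.5 times a count, within the interval of a share or within the spread of the strand difference between replicates; the widest were 703 and 276 facing clusters with gaps of up to 50 nt allowed. The lists give no reads per cluster, and the control is 1 library with few clusters, which limits every statement on its overlap. The arrangement of annotated genes was not run. No paired analysis was possible because the lists hold no counts and the control has 1 library, so that no test between groups could carry a block.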

Other observations

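Some windows of 100 kb held many facing clusters, although most loci were a single pair. In replicate 1 the fullest lay on chromosome 16, with 16 facing clusters from 29817848 to 29821507, 9 on plus and 7 on minus, of which 9 were enriched, with a median log2 fold of 1.99. In all, 16 plus-strand and 8 minus-strand clusters were listed in that stretch. In replicate 2 the same stretch had 15 plus-strand and 4 minus-strand clusters, of which 4 faced, and in the control 2 plus-strand clusters.

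The next fullest, on chromosome 8 from 145724337 to 145748726, had 13 facing clusters (6 plus and 7 minus), of which 2 were enriched. Replicate 2 had 2 facing clusters there, and the control had 2 clusters, both on the minus strand. On chromosome 5, 12 of the clusters between 92919737 and 92920855 faced another in replicate 1 (7 plus and 5 minus, of 10 plus and 5 minus in all), with a single one enriched. Replicate 2 had 6 plus-strand and 2 minus-strand clusters in that stretch, of which 2 faced, and the control had none. In replicate 2 the fullest window was on chromosome 14, from 24031202 to 24036552, with 8 facing clusters, 4 of them enriched, beside 20 clusters on the minus strand and 6 on the plus strand in all. Replicate 1 had 5 facing clusters there.

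A locus on chromosome 1, from 569885 to 569977, faced in both replicates with both strands below 0. The plus strand stood at −0.47 and −0.21 and the minus strand at −3.23 and −1.03.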
